A study of Mus musculus with 15 samples.

Results

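The mitochondrial ribosomal protein genes are nuclear genes whose products form the protein part of the mitochondrial ribosome, the mitoribosome. Members were chosen by name: every gene with an Mrpl symbol (large subunit) or an Mrps symbol (small subunit) followed by a number in the GENCODE vM21 annotation of mm10, leaving out 5 pseudogenes. This gave 78 genes of the 30949 listed in every library, 49 with an Mrpl symbol and 29 with an Mrps symbol, and all 78 were above the level needed for testing. No measured value entered the symbol pattern, but the family was chosen with earlier results of these data known. The members lay on 17 chromosomes, with 11 on chromosome 11 and 8 on chromosome 17. The longest annotated coding sequence of a member had a median of 582 bases (range 261 to 1326), against 1272 over 18763 tested protein-coding genes.

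The mitoribosome translates the few messenger RNAs made from mitochondrial DNA, which encode core subunits of the respiratory chain and of ATP synthase. All of its proteins are made in the cytosol from nuclear genes and imported, and they join ribosomal RNAs that are transcribed inside the organelle. The respiratory complexes and the mitoribosome are thus built from products of both genomes. T cell activation through the receptor and CD28 is known to be followed by growth of the cell and of its mitochondria. The mitochondrial RNAs themselves could not be examined beside these genes, because no mitochondrially encoded gene was among those listed.

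Spleens and lymph nodes were taken from C57BL/6 females that carried Foxp3YFP-Cre on 1 of their X chromosomes and homozygous floxed Dock8, the gene of a guanine nucleotide exchange factor of lymphocytes. Random X inactivation leaves such a female with regulatory T (Treg) cells of both kinds: YFP+ cells, which express Cre and are DOCK8 deficient (KO below), and YFP- cells, whose floxed Dock8 stays whole (WT below). All Treg cells were sorted as CD25+CD39+ (CD4+ or CD3+, depending on the protocol section) and kept for 16 h either in medium or with beads carrying antibodies to CD3 and CD28 at a ratio of 1 bead to 1 cell. The groups were 4 WT and 6 KO libraries without beads and 3 WT and 2 KO libraries with beads, and RNA was read by Smart-Seq2. Ages are not given, KO cells differ from WT cells also by YFP and Cre, and the samples are called independent without word on separate mice or cultures, so p-values measure the spread between these libraries.

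The values are TPM, which give each transcript's part of its library per unit length. They hold no read depth, and the number of reads behind a value is therefore unknown. TPM summed to between 819697 and 938139 per library. Repeat-derived predicted genes, 13 in all, took 14.9% to 34.7% of TPM in WT and 24.9% to 48.7% in KO libraries without beads, and 7.91% to 14.2% and 12.3% to 18.9% with beads. Dock8 read 13.7, 13.7, 9.15 and 21.98 TPM in WT and from 6.70 up to 11.9 TPM in KO libraries without beads (log2 difference -0.67, limma adjusted p = 0.368). With beads it read 8.71, 10.1 and 8.91 TPM in WT and 7.90 and 5.82 TPM in KO libraries. General T cell markers (Cd3d, Cd3e, Cd3g, Cd4 and Trac) had sums of 632 to 1268 TPM in the WT libraries without beads, all above the 298 to 531 TPM of the KO libraries, and of 879.6 to 1147 TPM (WT) and 1132 to 1331 TPM (KO) with beads. Treg markers summed to 379.8 to 549 TPM (WT) and 273 to 449.6 TPM (KO) without beads, and to 1072 to 1188 TPM and 1112 to 1280 TPM with beads. Markers of B cells (4.22 to 32.1 TPM) and myeloid cells (1.61 to 10.1 TPM) were far lower.

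Without beads the members were modest transcripts. Leaving out Mrpl48, which is described separately, group means of single members ran from 5.08 to 106 TPM in WT cells (median 22.9) and between 2.45 and 77.7 TPM in KO cells (median 14.1). With beads they ran from 14.98 to 245 TPM in WT cells (median 67.0) and between 13.0 and 213 TPM in KO cells (median 56.0). The number of members with a group mean of at least 100 TPM was 1, 0, 22 and 15 in the same order. A member at 0 TPM occurred in 4 of the 6 KO libraries without beads and in no other library. The coefficient of variation between libraries, taken per member, had a median of 0.382 in WT and 0.515 in KO cells without beads, and of 0.153 and 0.145 with beads, so that unstimulated levels are the less precise ones.

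The 77 members other than Mrpl48 summed to 2234, 2039.8, 1617 and 2472 TPM in the WT libraries without beads and to 1154 to 1868 TPM (median 1212) in the KO libraries of that kind. With beads the sums were 6303, 6894 and 6272 TPM in WT and 5027 and 5696 TPM in KO libraries. Every bead library lay above every library without beads. The sum took 0.177% to 0.295% of all TPM in WT and 0.126% to 0.216% in KO cells without beads, and 0.751% to 0.824% and 0.596% to 0.684% with beads. Set against the summed TPM of 79 cytosolic ribosomal protein genes, it was 5.42 ± 1.14% in WT and 5.43 ± 0.933% in KO cells without beads, and 5.50 ± 0.366% and 5.48 ± 0.217% with beads (mean ± SD, n = 4, 6, 3 and 2). Both ribosomes thus took larger shares with beads while the ratio between them differed by less than its spread.

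**Figure D1:**
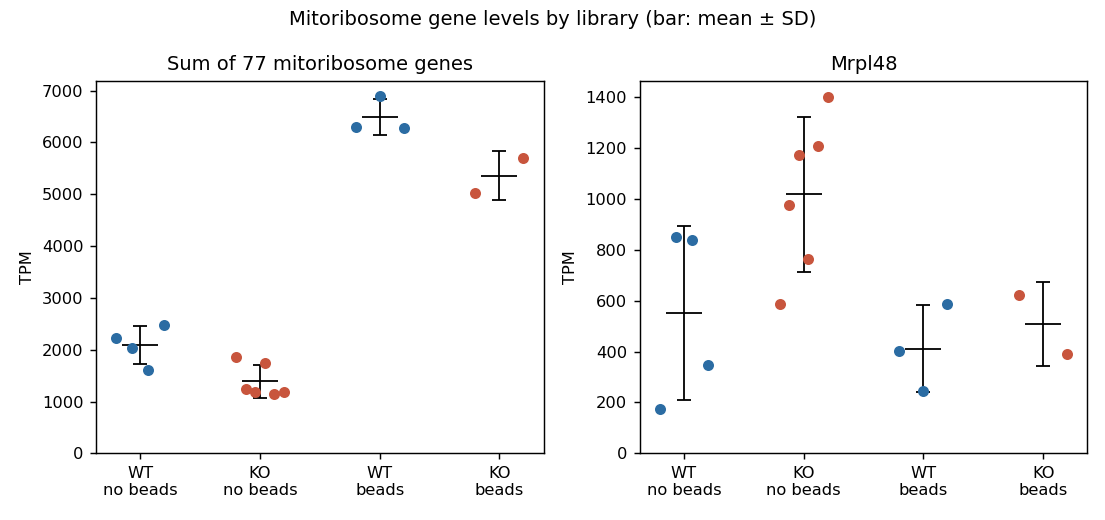
Left, TPM summed over the 77 mitoribosome genes other than Mrpl48 in each of the 15 libraries, by genotype and bead treatment; right, TPM of Mrpl48. Points are libraries, and bars the mean and SD; the sums with beads, 5027 to 6894 TPM, lie above those without, 1154 to 2472 TPM, while the Mrpl48 points with and without beads overlap in each genotype.

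With beads, WT cells had higher levels of most mitoribosome genes. The median member was 1.60 higher on the log2(TPM + 1) scale, 3.03-fold, and 44 of 78 members rose at a limma adjusted p under 0.05 over all genes tested, while none fell. Among all 29989 genes tested 4.6% were called higher and 6.63% lower, and the median difference was -0.44. Among the 5937 genes whose mean reached 20 TPM in 1 or more groups, called abundant genes below, 20.5% were called higher and the median was 0.19. The fitted difference was above 0 for 77 of 78 members, against 8734 of all 29989 genes and 3190 of the 5937 abundant genes. In 66 of 78 every bead library lay above every library without beads, which held for 8.61% of all genes and 32.8% of the abundant genes. TPM are shares of a library, so whether each cell held more of these transcripts, or less of the others, cannot be told apart, nor can fewer cells of a type and less RNA per cell.

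In KO cells the same family rose by a median of 2.07 on the log2 scale, 4.19-fold. Of the 78 members 55 rose and none fell in limma, against 5.95% of all genes called higher, 2.15% called lower and 26.6% of the abundant genes called higher. All genes and abundant genes had median differences of -0.23 and 0.74. Again 66 members had no overlap between bead and unstimulated libraries, against 11.2% of all genes and 40.3% of the abundant ones. Of the members called in WT cells 95.5% were also called in KO cells, and 76.4% of those called in KO cells were also called in WT cells, 42 genes in both. Mrpl44 and Mrps25 were called in WT cells alone and 13 members in KO cells alone, which does not show a difference between the genotypes; that difference has its own test further on.

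The counts rest on few libraries. Without WT bead library 2, 22 members were called in WT cells, and without WT bead library 1 or 3 they numbered 27 and 24, or 29 without WT library 1 or 2 of the unstimulated group. In KO cells 6 members remained above the threshold without bead library 5, and 12 without bead library 4, where a single KO bead library was assumed to vary like the other groups; the median member stayed between 1.90 and 2.16. Under each of 25 alternatives 17 members were called in WT cells and 6 in KO cells, the latter being Mrpl17, Mrpl18, Mrpl40, Mrpl42, Mrpl54 and Mrps28. Any other KO call of a member ended without bead library 5. With the repeat-derived genes left out and the rest rescaled, medians were 1.35 in WT and 1.72 in KO cells, with 35 and 40 members called. Markers of CD8 T and NK cells summed to between 28.4 and 55.8 TPM (WT) and between 27.3 and 49.6 TPM (KO) without beads, and to 13.1 to 18.9 and 16.6 to 34.0 TPM with beads. Erythroid and stromal markers went from 45.1 to 62.3 and 40.1 to 79.1 TPM without beads to 17.3 to 26.1 and 19.6 to 33.6 TPM with beads. Of the 6 CD8 T and NK cell markers Gzma was at 0 in both KO bead libraries. The part of these cells in the bead response was not tested.

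**Figure D2:**
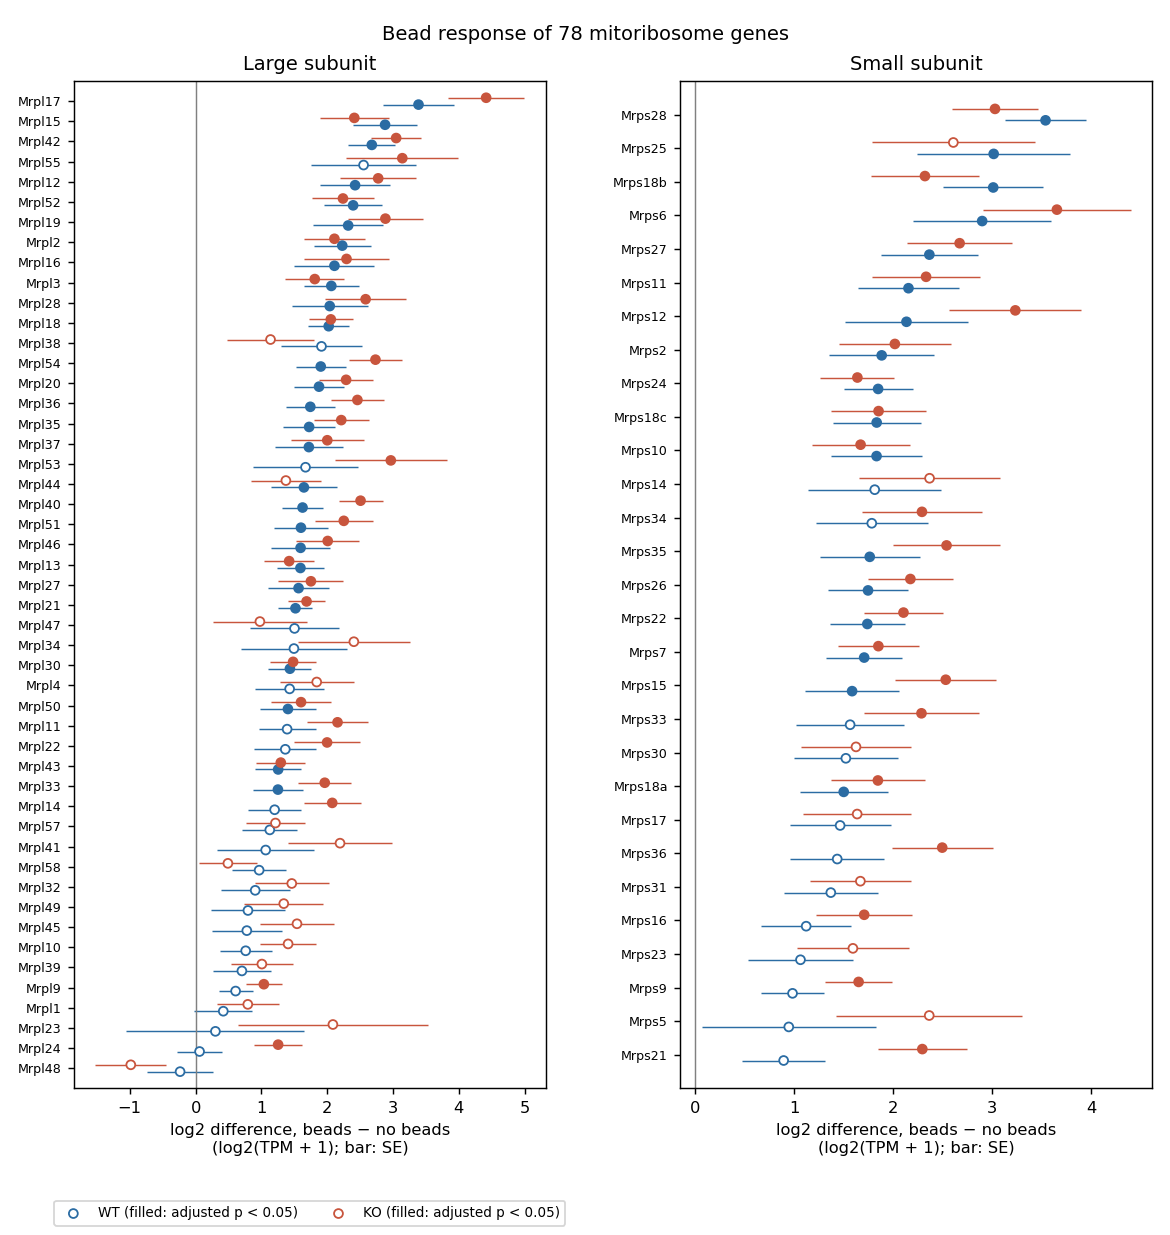
Difference in log2(TPM + 1) between bead and unstimulated libraries for each of the 78 members, ordered by the value in WT cells within the large (left) and small (right) subunit; bars are limma standard errors and filled points have an adjusted p under 0.05. WT points run from -0.24 (Mrpl48) to 3.54 (Mrps28), and KO points from -0.98 (Mrpl48) to 4.42 (Mrpl17).

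The rise was seen in both subunits and in proteins of different ancestry. In WT cells the median was 1.56 over the 49 Mrpl genes and 1.74 over the 29 Mrps genes, with 27 and 17 called. In KO cells it was 2.00 and 2.28, with 33 and 22 called. The symbols do not follow the subunits exactly, since the Mrps18a and Mrps30 proteins sit in the large subunit in structures of the mammalian mitoribosome. The 44 members with a bacterial homologue had medians of 1.59 in WT and 2.04 in KO cells, and the 30 members known only from mitochondria had medians of 1.61 and 2.06. These medians lie well within the range of single members, and no test was made between the classes. With Mrpl48 left out, the summed TPM of the Mrps genes was 0.566 to 0.725 times that of the Mrpl genes in WT cells without beads and 0.660 to 0.689 times with beads, ranges that overlap. In KO cells the same ratio was 0.508 to 0.617 without beads and 0.622 to 0.709 with beads, without overlap. With Mrpl48 counted, the ratios without beads were 0.312 to 0.553 (WT) and 0.188 to 0.406 (KO), and with beads 0.595 to 0.633 and 0.518 to 0.635.

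Mrps28, a small-subunit protein, had the smallest p of any member in WT cells. It read 6.12, 4.77, 4.16 and 9.46 TPM in WT libraries without beads and 70.0, 76.5 and 90.7 TPM with beads, a log2 difference of 3.54 (SE 0.40, limma adjusted p = 0.000160). In KO cells it read 2.81 to 10.1 TPM (median 5.86) without beads, and 47.6 and 61.1 TPM with beads (3.03, adjusted p = 0.000658). All 5 bead libraries stood several-fold above all 10 unstimulated ones. Mrps28 shared no 31-base stretch of transcript with any other annotated gene.

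Mrpl17, a bacterial-type protein of the large subunit, had the largest fitted difference of any member in KO cells. Without beads it read 28.3, 5.60, 11.9 and 45.3 TPM in WT libraries and 3.23 to 11.2 TPM (median 5.71) in KO libraries. With beads it read 172, 205 and 199 TPM in WT and 124 and 171 TPM in KO libraries. The unstimulated WT libraries were themselves spread widely, and no bead library overlapped with any of them. The differences were 3.39 (SE 0.54, adjusted p = 0.00159) in WT and 4.42 (SE 0.58, adjusted p = 0.000367) in KO cells by limma.

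Mrpl42, a large-subunit protein without a bacterial counterpart, went from 32.8, 34.6, 25.5 and 45.0 TPM to 229, 248 and 192 TPM in WT libraries. In KO libraries it went from 11.7 to 42.5 TPM (median 18.3) to 173 and 165 TPM, the smallest p of any member there. The limma differences were 2.68 (adjusted p = 0.000510) and 3.05 (adjusted p = 0.000252), with no overlap between bead and unstimulated libraries in either genotype. Mrpl15, the relative of a core protein of the bacterial large subunit, read 23.6, 30.8, 15.1 and 24.97 TPM and then 184, 169 and 172 TPM in WT cells (2.88, adjusted p = 0.00210). Its KO libraries read 7.18 to 62.3 TPM (median 24.1) and then 113 and 139 TPM (2.41, adjusted p = 0.00954).

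Mrpl18 encodes the relative of a bacterial protein that carries the small ribosomal RNA of the large subunit. Its WT libraries read 27.4, 27.9, 19.6 and 37.9 TPM without and 98.1, 132 and 117 TPM with beads (2.02, adjusted p = 0.00120), and KO libraries 14.6 to 28.0 TPM (median 23.3) and 96.5 and 86.5 TPM (2.06, adjusted p = 0.00149). Mrpl21 had one of the smaller called differences with one of the smallest errors. It read 45.0, 35.2, 24.7 and 39.8 TPM and 102, 116 and 93.3 TPM in WT libraries (1.52, SE 0.26, adjusted p = 0.00218). In KO libraries it read 21.5 to 31.6 TPM (median 26.6) and 84.7 and 90.8 TPM (1.69, adjusted p = 0.00162, and 0.0537 without KO bead library 5). Both genes separated bead from unstimulated libraries in both genotypes.

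Mrpl40, Mrpl54 and Mrpl36 were among the 8 called members with the smallest p in KO cells and rose in WT cells too. Mrpl40, a mitochondria-specific protein, went from 7.85 to 18.5 TPM (median 13.8) to 70.1 and 87.2 TPM in KO libraries (2.51, SE 0.33, adjusted p = 0.000394; WT 1.63, adjusted p = 0.00438). Mrpl54, also mitochondria-specific, went from 10.9 to 33.7 TPM (median 12.6) to 99.3 and 109 TPM (2.73, adjusted p = 0.000895; WT 1.90, adjusted p = 0.00553). Mrpl36, of bacterial type, went from 4.74 to 19.0 TPM (median 13.6) to 64.7 and 71.6 TPM (2.46, adjusted p = 0.00160, and 0.0513 without KO bead library 5; WT 1.74, adjusted p = 0.00817). None of the 3 had overlapping bead and unstimulated libraries in either genotype, and their low KO values without beads return in the comparison of genotypes.

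The stalk of the large subunit, which recruits the elongation factors, is built on Mrpl11 and Mrpl10 and carries copies of Mrpl12. Mrpl12 went from 15.5, 20.4, 12.1 and 30.1 TPM to 95.3, 125 and 93.0 TPM in WT libraries (2.42, adjusted p = 0.00973) and reached 81.4 and 84.6 TPM in KO libraries from 3.16 to 22.4 TPM (median 14.3) (2.77, adjusted p = 0.00752). Mrpl10 read 19.1 ± 3.24 TPM without and 33.1 ± 5.13 TPM with beads in WT cells, and missed the threshold in both genotypes (0.76 and 1.41, adjusted p = 0.234 and 0.0519). Mrpl11, the lowest of all members on average, had 5.08 ± 1.35 TPM and 14.98 ± 3.72 TPM in WT cells. It was called in KO cells (2.16, adjusted p = 0.00935) and just missed in WT cells (1.39, adjusted p = 0.0507).

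Of the proteins around the catalytic centre and the exit tunnel, Mrpl2 and Mrpl3 rose in both genotypes. Mrpl2 read 16.8, 16.2, 8.14 and 22.2 TPM and 74.8, 85.6 and 62.6 TPM in WT libraries (2.23, adjusted p = 0.00477), and Mrpl3 read 10.7, 13.1, 13.0 and 28.1 TPM and 79.7, 60.5 and 60.7 TPM (2.06, adjusted p = 0.00576). The KO differences were 2.11 and 1.81 (adjusted p = 0.0109 and 0.0203). The KO calls held in 22 and 20 of the 25 alternatives. Mrpl4, at the tunnel, had differences of 1.43 and 1.84 that did not pass (adjusted p = 0.0972 and 0.0588). Its unstimulated libraries read 19.7, 14.3, 30.96 and 52.0 TPM in WT and 7.36 to 43.4 TPM (median 17.04) in KO cells.

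Members with a role beyond scaffold were mixed. Mrpl45 helps to hold the mitoribosome at the inner membrane; it read 34.3 ± 20.7 TPM without and 54.2 ± 13.7 TPM with beads in WT cells and did not pass in either genotype (adjusted p = 0.376 and 0.117). Mrpl44, which has a ribonuclease III-like fold, had differences of 1.65 in WT (adjusted p = 0.0454) and 1.37 in KO cells (adjusted p = 0.142). The WT call of Mrpl44 held in 10 of the 25 alternatives and ended without any one of the 7 WT libraries (adjusted p from 0.0528 to 0.132). It also ended without KO bead library 4 or 5 or unstimulated KO library 4. Mrpl58, a peptidyl-tRNA hydrolase that can free stalled ribosomes, had 75.4, 59.4, 44.7 and 28.8 TPM without and 96.3, 114 and 82.7 TPM with beads in WT libraries (0.97, adjusted p = 0.152). In KO libraries Mrpl58 read 30.9 to 111 TPM (median 44.1) and 68.4 and 74.9 TPM, and the ranges overlapped (0.49, adjusted p = 0.575).

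In the small subunit, Mrps12 belongs to the decoding centre. It went from 25.01, 16.8, 18.8 and 27.0 TPM to 90.3, 109 and 95.3 TPM in WT libraries and from 2.00 to 29.5 TPM (median 7.78) to 66.8 and 95.1 TPM in KO libraries (2.13 and 3.23, adjusted p = 0.0379 and 0.00724). The bacterial-type Mrps2, Mrps7 and Mrps15 also rose in both genotypes, by 1.88, 1.71 and 1.58 in WT and by 2.02, 1.85 and 2.53 in KO cells (adjusted p from 0.00639 to 0.0430 over the 6 tests). Several of these calls were close to the threshold. Those of Mrps12 and Mrps15 in WT cells held in 16 and 11 of the 25 alternatives, and both ended without any one of the 7 WT libraries (adjusted p up to 0.118 and 0.128). That of Mrps15 also ended without KO bead library 4 or 5 or unstimulated KO library 5. Mrps2 was called in 18 of the 25 in WT and 14 in KO cells. It was lost in WT cells without any one of the 3 bead libraries or unstimulated library 1 or 2 (adjusted p up to 0.109). In KO cells it was lost without KO bead library 4 or 5 or unstimulated library 5, and without WT bead library 1, 2 or 3. Mrps5 did not pass in either genotype (adjusted p = 0.532 and 0.150), with unstimulated KO libraries from 1.07 to 76.4 TPM (median 15.3). Its standard errors were the widest of the members described here.

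The 3 paralogues Mrps18a, Mrps18b and Mrps18c, of which the mitoribosome uses each at its own place, all rose. Mrps18b had the largest difference, from 23.1, 19.7, 12.8 and 4.33 TPM to 89.0, 123 and 123 TPM in WT libraries (3.01, SE 0.51, adjusted p = 0.00208). Mrps18c read 49.1, 84.6, 30.5 and 34.4 TPM and 191, 142 and 167 TPM (1.83, adjusted p = 0.0156). Mrps18a read 16.9, 23.0, 38.4 and 26.1 TPM and 62.6, 96.3 and 63.4 TPM (1.50, adjusted p = 0.0413). In KO cells the differences were 1.84, 2.32 and 1.85 for Mrps18a, Mrps18b and Mrps18c (adjusted p = 0.0266, 0.0153 and 0.0261). In WT cells the Mrps18a call held in 14 of the 25 alternatives. It ended without WT bead library 1, 2 or 3 or unstimulated WT library 1, 3 or unnumbered (adjusted p up to 0.160). The call also ended without KO bead library 4 or 5. The Mrps18c call in WT cells ended without WT bead library 1 or 3 (adjusted p = 0.0689 and 0.0586). Each paralogue separated bead from unstimulated libraries in both genotypes.

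Among mitochondria-specific proteins with an Mrps symbol, Mrps22 rose in both genotypes (1.74 and 2.10, adjusted p = 0.00835 and 0.00469). Mrps34 was called in KO cells (2.29, adjusted p = 0.0293) and not in WT cells (1.78, adjusted p = 0.0540), although 73.8% of the 31-base stretches of its transcripts also occur in other genes, mostly in the neighbouring Mapk8ip3. Its KO call held in 19 of the 25 alternatives. Mrps30, of the large subunit despite its symbol, had differences of 1.52 and 1.62 that did not pass (adjusted p = 0.0738 and 0.0926). Mrps36, now usually assigned to the 2-oxoglutarate dehydrogenase complex rather than to the ribosome, was called in KO cells (2.49, adjusted p = 0.00697) with 1.43 in WT cells (adjusted p = 0.0656).

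A set of 21 members was called in neither genotype, and it held Mrpl48, Mrpl1 and Mrps31. Mrpl1, of the mobile side stalk, read 7.49, 9.98, 10.6 and 17.6 TPM without and 16.6, 14.9 and 13.5 TPM with beads in WT libraries (0.42, adjusted p = 0.583). Mrps31 had 6.77 ± 1.23 TPM and 19.2 ± 4.33 TPM (1.37, adjusted p = 0.0767). At the other end of the scale Mrpl30 was the highest member after Mrpl48, with 73.4, 66.3, 73.7 and 110.0 TPM without and 193, 252 and 207 TPM with beads in WT libraries (1.43, adjusted p = 0.0109). The WT call ended without bead library 2 (adjusted p = 0.0555). Its KO libraries read 36.4 to 108 TPM (median 80.7) and 211 and 206 TPM (1.48, adjusted p = 0.0159).

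Mrpl48 stood apart from its family in level and in direction. It read 176, 848, 837 and 347 TPM in WT and 587 to 1401 TPM (median 1074) in KO libraries without beads, and 402, 247 and 587 TPM and 623 and 390.0 TPM with beads. It was the single member with a fitted bead difference below 0 (-0.24 in WT and -0.98 in KO cells, adjusted p = 0.806 and 0.319), and bead and unstimulated libraries overlapped in each genotype. After median-ratio scaling no member was below 0 in WT cells, and without the repeat-derived genes 2 were. Of all 31-base stretches in its annotated transcripts 16.6% occur in other genes, but this share was 0.545% in transcript Mrpl48-201 and 75.2% in Mrpl48-206. Rab6a shares the most of them, 678, and read 3.48 to 28.0 TPM over the libraries. It read 7.79 TPM in the unnumbered WT library and 3.48 TPM in unstimulated KO library 5, where Mrpl48 read 176 and 1401 TPM. Among the other genes that share them are abundant predicted genes such as Gm42927 and Gm26905, with 111 and 112 shared stretches. Gm42927 read 795, 2063, 2391 and 1335 TPM in the WT libraries without beads and 731, 646 and 869 TPM with beads, so that it too was lowest in the unnumbered WT library among the unstimulated ones. None of these stretches occurs in the 13 repeat-derived genes named above. How much of the Mrpl48 value belongs to its messenger RNA was not tested. Leaving it out gave medians of 1.60 in WT and 2.08 in KO cells for the bead response of the other 77.

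Sequence shared with other genes also bears on Mrpl53, Mrps34 and Mrps25, of which 84.4%, 73.8% and 68.9% of the 31-base stretches occur elsewhere, chiefly in the overlapping Gm42688, Mapk8ip3 and Nr2c2. The median over members was 6.50%, and 49 of 78 were under 10%. Mrps25, called in WT cells alone, read 10.4, 15.9, 4.84 and 2.11 TPM without and 74.7, 65.0 and 47.0 TPM with beads there (3.01, SE 0.77, adjusted p = 0.0208). This call ended without any one of the 3 bead libraries or unstimulated library 2 or 3 (adjusted p up to 0.0803). Values of these 3 genes are uncertain for that reason.

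The bead response of the family was then set beside other parts of the same supply chain. The 79 cytosolic ribosomal protein genes had medians of 1.56 in WT and 1.99 in KO cells, with 68 called higher in each. The 86 nuclear genes of the respiratory chain and ATP synthase had medians of 1.69 and 2.24, with 53 and 67 called higher. The 24 TIMM and TOMM genes of the import machinery had medians of 2.10 and 2.28, with 16 and 19 called higher. No gene of these 3 families was called lower, and the middle ranges of the 4 families overlapped.

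Lists of genes that act on the mitoribosome without being part of it had lower medians. Of 27 genes for assembly and ribosomal RNA modification, 2 were called higher and 1 lower in WT cells (median 0.17), and 3 higher in KO cells (median 0.76). Rcc1l, an assembly factor, rose in both (2.11 and 2.47, adjusted p = 0.0169 and 0.0124). Mterf3, a regulator of mitochondrial transcription and of large-subunit assembly, fell in WT cells from 77.4 ± 9.33 TPM to 41.5 ± 2.26 TPM (-0.87, adjusted p = 0.0210). Its KO value was -0.75 (adjusted p = 0.0724). The summed TPM of the 27 genes was 506 to 651 in WT cells without beads and 526 to 593 with beads, ranges that overlap.

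Of 15 mitochondrial translation factors and related genes 3 were called higher in WT cells (median 0.27) and 2 in KO cells (median 0.91), none lower. Tufm, the elongation factor that brings aminoacyl-tRNA, went from 22.2 ± 7.89 TPM to 117 ± 6.86 TPM in WT cells (2.40, SE 0.32, adjusted p = 0.000519; KO 2.04, adjusted p = 0.00199). Gfm1, the translocation factor, rose by 1.78 and 1.74 (adjusted p = 0.0106 and 0.0211). Tsfm, which recharges Tufm, rose in WT cells (1.67, adjusted p = 0.0120) and had 1.33 in KO cells (adjusted p = 0.0632). The medians of the list lay near those of the abundant genes, 0.19 and 0.74. The list's shares called higher, 20% and 13.3%, did not exceed the 20.5% and 26.6% of the abundant genes. Its summed TPM, to which Tufm contributes much, nevertheless went from 171 to 303 up to 500.2 to 574 in WT libraries and from 133 to 263 up to 443 to 452 in KO libraries, without overlap.

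Among 17 genes for transcription of mitochondrial DNA and processing of its RNA 3 were called higher in each genotype (medians 0.83 and 1.11), none lower. This share of 17.6% was under the 20.5% (WT) and 26.6% (KO) of the abundant genes. Ssbp1, the single-stranded DNA binding protein of mitochondria, rose by 1.49 and 1.76 (adjusted p = 0.00566 and 0.00342). The list summed to 176 to 301 TPM without and 373 to 427 TPM with beads in WT libraries, and to 130.3 to 210.1 TPM and 399.6 to 399.9 TPM in KO libraries, again without overlap. Of 5 subunits with other symbols Gadd45gip1 was called in both genotypes (1.76 and 1.89, adjusted p = 0.0300 and 0.0363) and Aurkaip1 in KO cells (2.10, adjusted p = 0.0310). Dap3, a GTP-binding protein of the small subunit, had 26.5 ± 11.1 TPM and 58.6 ± 5.56 TPM in WT cells (1.19, adjusted p = 0.0612).

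Mitochondrial protein quality control moved with the subunits, with 8 of 12 genes called higher in each genotype (medians 1.80 and 2.31), none lower. Hspd1 and Hspe1, the chaperonin and its partner, had 24.7 ± 8.36 TPM and 52.3 ± 18.3 TPM without beads and 347 ± 42.9 TPM and 568 ± 100.3 TPM with beads in WT cells. Their differences were 3.83 and 3.48 (adjusted p = 6.2e-05 and 0.000335). Of 10 regulators of nuclear genes for mitochondria 2 were called higher in each genotype: Myc (4.59 and 4.88, adjusted p = 6.2e-05 and 4.2e-05) and Atf4 (1.52 and 1.65, adjusted p = 0.00287 and 0.00262). The medians of this list were 0.09 and 0.74, with 4 of 10 genes below 0 in each genotype. Its share called higher, 20% in each, did not exceed the 20.5% (WT) and 26.6% (KO) of the abundant genes. Myc, a transcription factor known to act on genes of ribosomes and metabolism, read 6.32 ± 3.29 TPM without and 162 ± 19.8 TPM with beads in WT cells.

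**Figure D3:**
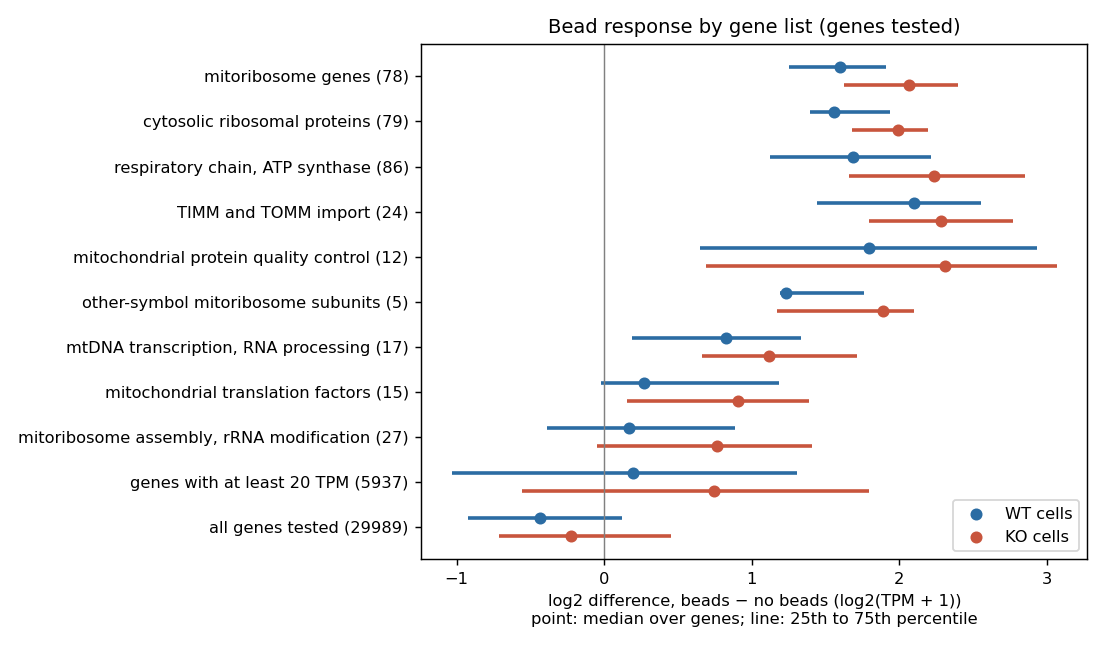
Median (point) and 25th to 75th percentile (line) of the bead difference in log2(TPM + 1) over the genes of each list, in WT and KO cells, with the number of genes tested in brackets. The mitoribosome, cytosolic ribosome, respiratory chain and import lists have WT medians of 1.56 to 2.10, against 0.17 for assembly and RNA modification and -0.44 for all genes tested.

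Since the members moved together, their promoters were compared. Of the 78 members 69 matched a promoter in the RefSeq table for GRCm38.p6, each from 250 bases before to 50 after the start, and in 64 of the 69 the bases after the start occurred in a vM21 transcript of the same gene. A set of 4 motifs was searched on both strands: the palindrome bound by NRF1, spelled by the capitals of the Mrpl9 window; CCGGAAG, the core bound by ETS factors such as GABPA; AAGATGGC, bound by YY1; and CACGTG, the E-box bound by Myc, USF and others. No letters of one motif lie within another. The following windows of 120 bases before the start are shown because each holds such a match, in capitals, in a member called higher with beads in at least 1 genotype; the reading is 5′ to 3′ on the gene's strand. Mrpl3 is at chr9:105053148-105053267 (plus strand), Mrpl52 at chr14:54426789-54426908 (plus), Mrpl9 at chr3:94443216-94443335 (plus) and Mrpl20 at chr4:155802758-155802877 (plus). The starts used here are those of RefSeq. In vM21 Mrpl3 starts at base 105053239, so the last 29 bases of its window, with the ETS match, are annotated exon. The last 18 bases of the Mrpl9 window are exon in vM21 too, and its match lies before them.
Mrpl3 (ETS): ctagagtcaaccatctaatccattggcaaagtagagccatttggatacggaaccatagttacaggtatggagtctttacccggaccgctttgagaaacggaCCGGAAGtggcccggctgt
Mrpl52 (ETS, on the other strand): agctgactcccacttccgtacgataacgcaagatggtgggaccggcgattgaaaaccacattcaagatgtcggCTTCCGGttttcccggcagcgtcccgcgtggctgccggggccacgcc
Mrpl9 (NRF1): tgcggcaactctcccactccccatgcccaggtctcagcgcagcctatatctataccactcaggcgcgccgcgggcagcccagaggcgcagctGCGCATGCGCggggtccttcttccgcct
Mrpl20 (E-box): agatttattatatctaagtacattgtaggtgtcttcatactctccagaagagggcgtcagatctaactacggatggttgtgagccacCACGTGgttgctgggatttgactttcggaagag

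The ETS letters occurred in 25 of 69 member promoters (36.2%), against 13.6% of 14528 promoters of tested protein-coding genes. Promoters on a single chromosome that holds no member were left out of this background. The YY1 letters occurred in 12 (17.4%, against 3.58%) and the NRF1 letters in 3 (4.35%, against 1.55%). E-box letters occurred in 5 (7.25%, against 8.56%). None of the 4 was found in 31 of the 69. The median GC content was close, at 58.3% against 58.0%, with 25th percentiles of 54% and 50%. The number of CpG pairs was less alike, with medians of 21 against 16 and 25th percentiles of 16 against 5. The ETS, NRF1 and E-box letters themselves hold CpG pairs, and the shares were not compared with promoters of like CpG number. A match describes these letters only and is no measured binding site. The Mrpl52 gene shown, with an ETS match, went from 76.4, 38.3, 63.0 and 21.6 TPM to 213, 283 and 228 TPM in WT libraries (2.39, adjusted p = 0.00344), and Mrpl20, with an E-box match, from 60.6, 46.0, 54.1 and 53.7 TPM to 184, 225 and 189 TPM (1.88, adjusted p = 0.00638).

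Some members start near a gene that runs the other way. Whether such genes share a promoter was not tested. In vM21 a protein-coding gene on the opposite strand started upstream, within 1000 bases, of 18 of the 78 members (23.1%), against 7.56% of 18763 tested protein-coding genes. Pairs whose first parts overlap, such as Mrpl46 and Mrps11, are not in these counts. Both genes were tested in 17 such pairs. The median bead difference of the 17 members was 1.63 in WT and 2.20 in KO cells, and that of their 17 partners was 0.12 and 0.14. All genes tested had medians of -0.44 and -0.23, and abundant genes 0.19 and 0.74. A single partner was called higher and a single one lower in each genotype. Over all genes 4.6% were called higher and 6.63% lower in WT cells, and 5.95% and 2.15% in KO cells. Psma2, a proteasome subunit that starts 75 bases from Mrpl32, rose by 2.20 and 2.47 (limma adjusted p = 0.00187 and 0.00133) beside 0.91 and 1.46 for Mrpl32. Pnpla7, a lysophospholipase 935 bases from Mrpl41, fell by 2.48 and 1.47 (adjusted p = 0.000635 and 0.0217). Ppp1r10, a phosphatase regulator 45 bases from Mrps18b, had -0.16 in WT cells (adjusted p = 0.876) beside 3.01 for Mrps18b. Where such genes overlap, reads without strand could pass from one to the other, and the use of strand in the deposited values is not given in the sources used here.

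**Figure D4:**
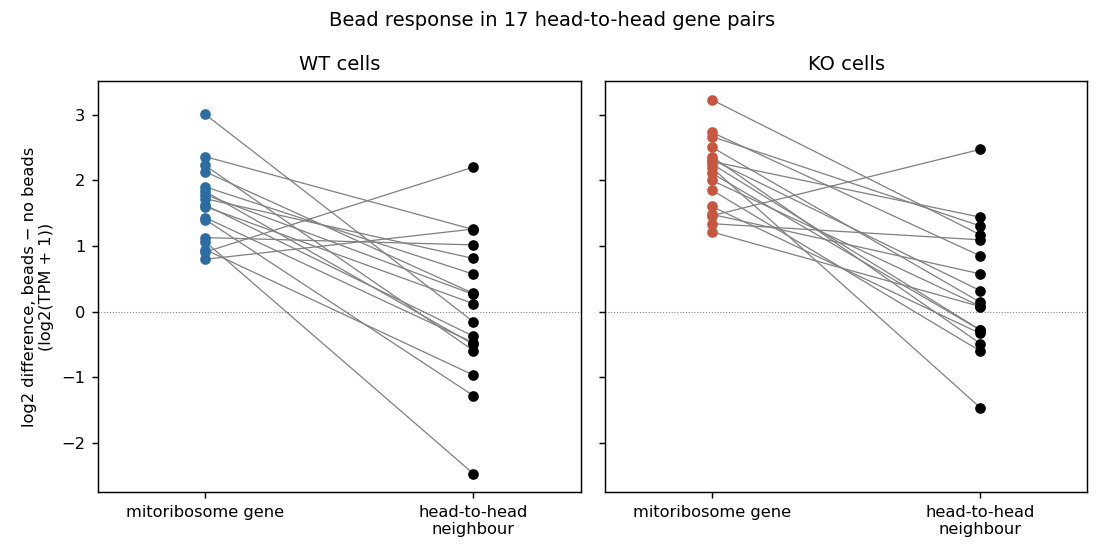
Bead difference in log2(TPM + 1) of 17 mitoribosome genes and of the protein-coding gene that starts within 1000 bases on the other strand, joined by a line per pair, in WT (left) and KO (right) cells. The member median is 1.63 and the partner median 0.12 in WT cells; most lines slope down, and the line from Mrpl32 to Psma2 slopes up in both.

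Without beads, the family read lower in KO than in WT cells for most members, and no single member passed the test. The median difference was -0.61 on the log2 scale. Below 0 were 72 of 78 members (92.3%), against 58.4% of all genes and 76.5% of abundant genes. The limma fit called 0 of 78, against 0.0734% of all genes called. At an unadjusted p under 0.05 there were 21 members (20 lower and 1 higher), 26.9% of the family. The same share was 11.3% over all genes and 26.5% over abundant genes, whose median was -0.44. Thus the members' share was close to that of abundant genes, a set that is not matched to the members by level. Related families read lower too. The cytosolic ribosomal protein genes had a median of -0.60 with 76 of 79 below 0. The respiratory chain and ATP synthase genes had -0.76 with 81 of 86 below 0. The TIMM and TOMM genes had -0.57 with 18 of 24 below 0, and no gene of these families was called. T cell markers also read lower: all 5 were below 0 (median -0.92, limma adjusted p from 0.0634 to 0.343), and their sums of 298 to 531 TPM in KO libraries lay below the 632 to 1268 TPM of WT libraries. Of 6 Treg markers 5 were below 0 (median -0.72), Foxp3 the lowest at -1.71 (adjusted p = 0.0646). The part of these differences in the family's was not tested. The median stayed below 0 under 3 rescalings of the libraries, at -0.44 after median-ratio scaling, -0.26 after scaling to 893 genes at 50 TPM or more in every group and -0.44 without the repeat-derived genes, with 12, 22 and 11 members above 0. The median of all genes was -0.11 as deposited and 0.12 with the second of these.

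Mrpl40, a large-subunit protein whose human gene lies in a chromosomal region lost in DiGeorge syndrome, had the smallest p. It read 33.9, 44.7, 23.6 and 43.8 TPM in WT and 7.85 to 18.5 TPM (median 13.8) in KO libraries without beads. The KO libraries all lay below the WT libraries, and the difference was -1.39 (SE 0.26, adjusted p = 0.0739). Mrps21, a bacterial-type protein of the small subunit, read 93.4, 127, 65.2 and 139.6 TPM in WT and 16.3 to 61.3 TPM (median 45.3) in KO libraries (-1.30, SE 0.36, adjusted p = 0.198), also without overlap. Mrpl36, one of the shortest ribosomal proteins, was the third and last member without overlap, at 21.8, 26.3, 23.7 and 26.9 TPM and 4.74 to 19.0 TPM (median 13.6) (-1.03, adjusted p = 0.242). These 3 members are 3.85% of the family, against 1.27% of all genes and 3.42% of abundant genes that lay lower without overlap.

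Mrpl54 and Mrpl14, of the large subunit, were the other two of the 4 members with the smallest p. Mrpl54 read 49.4, 40.5, 37.3 and 19.3 TPM in WT and 10.9 to 33.7 TPM (median 12.6) in KO libraries (-1.18, adjusted p = 0.196). Its highest KO value was the unnumbered library, and without that library the difference was -1.41 with an adjusted p of 0.0489, the single call that leaving out a library brought. Mrpl14 read 26.3, 11.7, 28.1 and 31.9 TPM and 5.93 to 17.3 TPM (median 8.69) (-1.18, adjusted p = 0.215). In both genes the WT and KO ranges overlapped.

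With beads the family again read slightly lower in KO cells, and again no member passed. The median difference was -0.28 with 66 of 78 members below 0, limma called 0 of 78 (background 0.00333% of all genes), and 0 had an unadjusted p under 0.05, against 2.89% of all genes. Over all genes the median was 0.13 and 39.9% were below 0, and over abundant genes 50.01% were below 0. The cytosolic ribosomal protein genes had a median of -0.28 with 75 of 79 below 0. The respiratory chain and ATP synthase genes had -0.26 with 69 of 86 below 0, and the TIMM and TOMM genes -0.23 with 16 of 24. Both KO libraries lay below all 3 WT libraries for 31 members (39.7%), against 8.02% of all genes and 18.3% of abundant genes. Both lay above for Mrpl24 and Mrpl35, against 17.4% and 17.7%. With 2 and 3 libraries members of one family share each library's composition, so these counts are not separate observations. The median was -0.56, -0.39 and -0.21 in the 3 rescalings, and between -0.40 and -0.13 when a library was left out.

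Mrpl13, Mrpl3, Mrpl40 and Mrpl52 had the smallest p in this comparison. Mrpl52 read 213, 283 and 228 TPM in WT and 143 and 153 TPM in KO libraries (-0.69, SE 0.53, adjusted p = 1.00). Mrpl13 read 85.4, 124 and 76.7 TPM and 52.7 and 66.6 TPM (-0.65, SE 0.42). Mrpl40 read 106, 123 and 106 TPM and 70.1 and 87.2 TPM (-0.50, SE 0.37). The 3 genes had no overlap between genotypes. The differences were of the size of their standard errors or not far above.

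**Figure D5:**
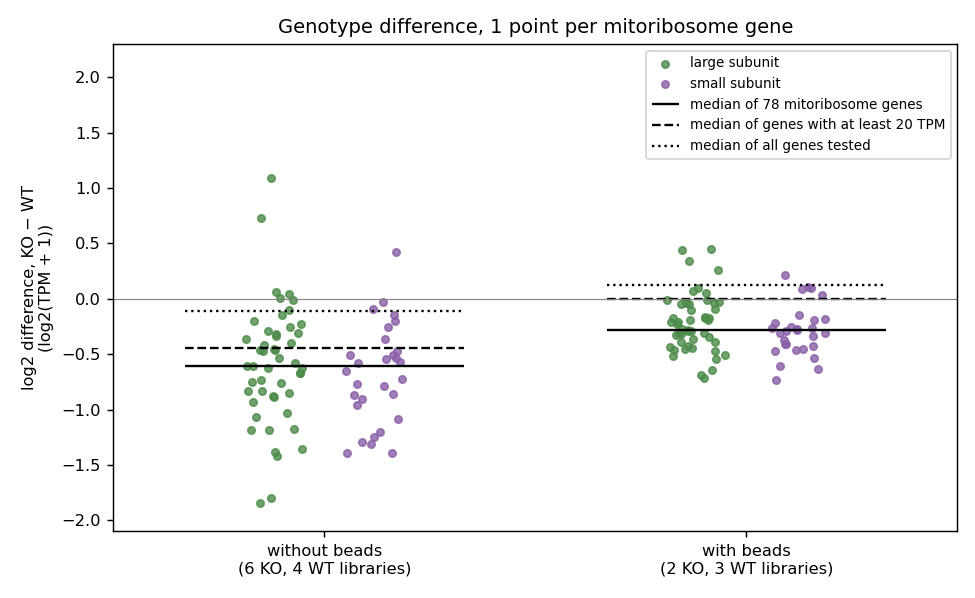
Difference in log2(TPM + 1) between KO and WT libraries for each of the 78 members, without beads (left) and with beads (right), the large subunit in green and the small subunit in purple. The member median (solid line) is -0.61 and -0.28, below the median of abundant genes (dashed) and of all genes tested (dotted) in both; no point passed the test.

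The difference between the bead responses of KO and WT cells, which uses all 4 groups, was called for 0 of 78 members in limma (background 0.00333% of all genes). Unadjusted p were under 0.05 for 2 members, 2.56%, against 4.16% of all genes. The share was 6.82% over abundant genes. The median was 0.41, beside 0.27 over all genes and 0.47 over abundant genes, so the family lay between the backgrounds. For the 5 T cell markers it was 1.26, all above 0 and none called. The family's median turned to -0.047 after median-ratio scaling and to -0.056 after scaling to genes at 50 TPM or more in every group, so its sign depends on how libraries are made comparable. Mrpl24 and Mrps21 had the smallest p. Mrpl24, a bacterial-type protein of the large subunit, read 84.1, 72.8, 41.8 and 42.7 TPM without and 59.0, 69.7 and 52.7 TPM with beads in WT libraries (0.06). Its KO libraries read 19.7 to 49.4 TPM (median 35.6) and 86.4 and 77.3 TPM (1.25, adjusted p = 0.0457). That KO call held in 11 of the 25 alternatives. It ended without either KO bead library and without unstimulated KO library 2, 3, 4 or 5 (adjusted p from 0.0525 to 0.0688 for these 4). The call also ended without WT bead library 1, 2 or 3 or unstimulated WT library 1. The interaction was 1.19 (SE 0.50, adjusted p = 0.999) for Mrpl24 and 1.40 (SE 0.62, adjusted p = 0.999) for Mrps21. Mrps21 with beads read 209, 147 and 224 TPM in WT and 154 and 271 TPM in KO libraries, which overlap. Mrpl40 and Mrps36 followed with 0.88 and 1.06 (adjusted p = 0.999 and 0.999).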

How the data were processed

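The authors deposited 1 table per library of Ensembl genes and TPM. Per the submitters' processing notes STAR, Salmon, DESeq2 and the mm10 genome were used; for roles, versions, annotation and strand, not given in the sources used here. Per the labels, 15 libraries fell into 4 groups. TPM keep no depth, so no count model was fitted.

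Identifiers were joined to GENCODE vM21. Unstimulated libraries list 36904 genes and bead libraries 31785; 30949 are in both, and the tests used the 29989 that reached 1 TPM in 2 or more libraries. The model, on log2(TPM + 1), came from limma 3.58.1 under R 4.3.3, with a variance trend, 1 mean per group and 11 residual degrees of freedom. Contrasts of group means were adjusted by the Benjamini-Hochberg method over all genes tested, and the threshold for a call was an adjusted p of 0.05. Differences are on the log2(TPM + 1) scale, SE are from limma, and ± beside TPM is the SD between libraries. Every adjusted p comes from this fit or from the alternative named beside it. The script was checked on simulated data.

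Members and lists were chosen with earlier results of these data known, so no list was tested as a set. Named genes were up to 8 called members per comparison with the smallest p, or the 4 smallest where fewer than 4 were called; 23 subunits fixed by role; the 3 highest and 3 lowest on average; and up to 3 genes of each pathway list. Other genes were named after their values were seen, among them Mrpl9, Mrpl20, Mrpl35, Mrps25, Psma2, Pnpla7, Ppp1r10, Rab6a, Gm42927 and Gm26905. Shared sequence was counted as 31-base stretches of vM21 transcripts that also occur in another gene, and promoters came from RefSeq (GRCm38.p6).

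Alternatives were no filter or one at 5 TPM, pseudocounts of 0.1 and 5, and only the groups compared. Others were the replicate number as a block and each library left out. Also tried were median-ratio scaling, scaling to the 893 genes at 50 TPM or more in every group, and leaving out repeat-derived genes. Leaving out Mrpl48 was added after seeing the data.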

Additional observations from a re-analysis of the deposited data

Results flagged for a closer look

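The 78 members were checked in the WT and KO groups without beads, since the bead groups are too small for it. In 8 of these 156 cases the highest or lowest value stood far from the others, 5.13%; chance alone marks about 1 group in 20. In KO cells Mrpl34, a large-subunit protein, was listed at 0 TPM in library 2, where the other libraries read 7.81 to 18.9 TPM. Mrps21 and Mrps9 were also lowest in KO library 2, at 16.3 TPM (others 37.6 to 61.3) and 8.13 TPM (others 15.5 to 19.4). Mrpl27 and Mrpl9 were lowest in KO library 1, at 10.0 TPM (others 18.3 to 24.3) and 18.0 TPM (others 24.3 to 28.6). Mrps17 was lowest in KO library 5, at 8.37 TPM (others 22.0 to 29.8). Mrpl54 was highest in the unnumbered KO library, at 33.7 TPM, where the others read 10.9 to 14.98 TPM, and this library decided whether Mrpl54 was called between genotypes. In WT cells Mrps30 was lowest in library 2, at 5.24 TPM (others 14.9 to 16.4).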

How the results depend on the processing

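Called counts with beads ran from 22 to 49 members in WT and from 6 to 57 in KO cells when each library was left out, and between genotypes without beads from 0 to 1, the 1 being Mrpl54 (-1.41) without the unnumbered KO library. With only the groups compared 30 members were called in KO cells, and with the replicate block 27. The replicate block gave 32 calls and a median of 1.62 in WT cells and a median of 2.17 in KO cells, -0.56 between genotypes without beads and -0.058 with beads; Mrpl3 turned to 0.012 between genotypes with beads. Same-numbered libraries showed no common deviation over all genes (correlations from -0.02 to 0.03). Over the members the same correlations ran from -0.29 to 0.16. The pair of unnumbered libraries had 0.07 over all genes and 0.06 over the members. No label says what an equal number shares, so whether the numbers pair libraries is unknown and the block is given as an alternative.

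Medians moved most with scaling. In WT cells the bead median was 2.20 with median-ratio scaling and 1.35 without repeat-derived genes. In KO cells it was 1.72 with a pseudocount of 5 and 1.72 without repeat-derived genes. Scaling to the 893 genes at 50 TPM or more in every group gave 1.63 in KO cells. Median-ratio scaling moved the median of all genes from -0.44 to -0.14 in WT cells. Between genotypes the medians were -0.26 without beads (scaling to the 893 genes) and -0.56 with beads (median-ratio scaling). The difference between bead responses turned to -0.047 with median-ratio scaling and to -0.056 with scaling to the 893 genes. The cause was not tested.

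The 17 members called in WT cells and the 6 called in KO cells under all 25 settings tried are the firmest. The 28 differences of the members with the smallest p were picked by that p, and those between genotypes were not called in the main fit. Staying on their side of the threshold was therefore largely set by the choice. Under the alternatives 692 of their values kept direction and side, 1 reversed, 1 gained a call and 2 lost it. The 2 were Mrpl36 (2.39) and Mrpl21 (1.64), which lost their call in KO cells without bead library 5. Calls nearer the threshold were lost more often: those of Mrpl44, Mrps15, Mrps18a and Mrps12 in WT cells held in 10, 11, 14 and 16 of 25 alternatives, and those of Mrpl24, Mrps2 and Mrps34 in KO cells in 11, 14 and 19. Read depth is unknown, and 2 KO bead libraries limit every comparison that uses them.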
